A study of Mus musculus with 2 samples.

Results

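Interferon response genes are the genes that cells switch on when an interferon reaches its receptor, and 36 of them, listed by symbol, were followed here in retinal cells of the mouse. All 36 were found among the 31053 genes of the files. Their RNA was counted in single cells of 2 libraries, 1 per group, and set side by side in microglia-like cells, in other myeloid cells, in Müller glia-like cells and in neurons, all named by marker genes. Both groups were wild type C57BL/6 mice at postnatal day 17, and each library pooled the retinas of 6 mice. In the group with oxygen-induced retinopathy (OIR), pups and nursing mother breathed 75% oxygen from day 7 to day 12 and then room air, which is a model of retinopathy of prematurity. The control group carries the label control with no further treatment. Cells of both groups were selected with beads that bind CD11b, a surface integrin of myeloid cells. With 1 pooled library per group no difference has a replicate check and no test was made. Intervals are 95% and cover counting error only.

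Type I interferons act through the receptor chains Ifnar1 and Ifnar2 and the kinases Jak1 and Tyk2. Signalling through them activates Stat2, which joins Irf9 in a complex that binds the interferon-stimulated response element (ISRE) of target promoters. Interferon gamma acts through Ifngr1 and Ifngr2, and its targets carry the gamma-activated site (GAS), as in the promoter of Irf1. Some response genes, such as Irf7, Irf9, Stat2 and the RNA sensors, belong to the machinery itself, while others, such as Rsad2 and the Ifit genes, code for antiviral effectors. Microglia are the resident macrophages of the retina and brain, and a small group of microglia with high levels of such genes is known from brain studies.

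The promoters of members on which the results turn are shown first, because they hold the 2 elements in different forms. Each sequence is the 250 bases before the RefSeq start of the gene on GRCm38.p6, read 5′ to 3′ on the strand of the gene. Capitals mark a match to the core of the ISRE, which is GAAA, any 2 bases and GAAA again (TTTC, any 2 bases and TTTC on the other strand), or to the core of the GAS, TTCNNNGAA, which reads the same on both strands. Overlapping matches were counted.
Isg15 (chr4:156200819-156201068, minus strand): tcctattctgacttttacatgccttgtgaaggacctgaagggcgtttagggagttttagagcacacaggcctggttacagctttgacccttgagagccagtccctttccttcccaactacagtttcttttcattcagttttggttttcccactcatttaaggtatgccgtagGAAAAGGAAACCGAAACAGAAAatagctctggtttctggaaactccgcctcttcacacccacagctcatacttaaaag
Ifit1 (chr19:34640639-34640888, plus strand): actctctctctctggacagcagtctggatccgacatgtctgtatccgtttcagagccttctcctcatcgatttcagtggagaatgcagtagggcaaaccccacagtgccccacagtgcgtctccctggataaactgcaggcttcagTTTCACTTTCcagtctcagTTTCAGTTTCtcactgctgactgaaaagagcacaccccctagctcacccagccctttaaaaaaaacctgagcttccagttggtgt
Ifit3 (chr19:34583279-34583528, plus strand): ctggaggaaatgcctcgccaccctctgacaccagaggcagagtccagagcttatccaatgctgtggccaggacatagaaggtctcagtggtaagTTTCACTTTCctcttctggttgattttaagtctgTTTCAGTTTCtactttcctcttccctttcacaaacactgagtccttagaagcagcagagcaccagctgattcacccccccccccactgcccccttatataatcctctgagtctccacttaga
Rsad2 (chr12:26456453-26456702, minus strand): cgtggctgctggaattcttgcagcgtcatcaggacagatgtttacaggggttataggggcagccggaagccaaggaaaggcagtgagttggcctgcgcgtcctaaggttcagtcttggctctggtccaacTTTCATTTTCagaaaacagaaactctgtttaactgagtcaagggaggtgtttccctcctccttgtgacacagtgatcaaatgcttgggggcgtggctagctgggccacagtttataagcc
Cxcl10 (chr5:92348890-92349139, minus strand): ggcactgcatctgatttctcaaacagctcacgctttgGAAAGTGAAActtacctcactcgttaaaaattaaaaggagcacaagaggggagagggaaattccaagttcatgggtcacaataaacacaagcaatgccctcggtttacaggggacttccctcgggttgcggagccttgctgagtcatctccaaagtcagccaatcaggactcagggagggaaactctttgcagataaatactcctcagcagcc
Irf1 (chr11:53769764-53770013, plus strand): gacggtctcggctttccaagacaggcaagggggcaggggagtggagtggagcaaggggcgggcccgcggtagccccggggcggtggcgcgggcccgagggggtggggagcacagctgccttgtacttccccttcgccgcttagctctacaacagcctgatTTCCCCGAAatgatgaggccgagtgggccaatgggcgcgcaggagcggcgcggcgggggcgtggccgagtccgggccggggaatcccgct
Irf7 (chr7:141266425-141266674, minus strand): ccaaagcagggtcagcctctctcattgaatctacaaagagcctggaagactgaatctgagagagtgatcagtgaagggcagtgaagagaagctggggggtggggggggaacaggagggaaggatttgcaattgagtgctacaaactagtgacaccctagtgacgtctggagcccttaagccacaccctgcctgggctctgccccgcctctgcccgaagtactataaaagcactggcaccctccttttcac

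In the Isg15 promoter 3 overlapping ISRE matches begin 78, 72 and 66 bases before the start. Ifit1 and Ifit3 hold 2 separate matches each, at 104 and 85 bases and at 156 and 122 bases before their starts. The match of Rsad2 begins 120 bases and that of Cxcl10 213 bases before the start. The Irf1 promoter holds a GAS match 90 bases before the start, and the Irf7 stretch holds neither set of letters. Promoter windows of 300 bases, 250 before and 50 after the start, were at hand for 29 of the 36 members, and 16 of them held an ISRE match (55.2%), against 1079 of 27025 genes (3.99%). A GAS match lay in 10 of the 29 (34.5%) and in 2582 of the 27025 genes (9.55%). Among the 8 members with a window that were higher in microglia-like cells of OIR, 6 held an ISRE match, as did 10 of the other 21. On build mm10 the Ifit1, Ifit2 and Ifit3 genes lie together on chromosome 19 within 99.3 kb, and Gbp2 and Gbp3 on chromosome 3 lie 47.4 kb apart. Several members have close copies in the mouse genome (Ifit3, Ifi204, Ifi27l2a, Oas1a, Trim30a, Phf11d and the Gbp genes), so the counting may have split or dropped reads of these, and their levels are less certain.

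The control library held 10826 barcodes with 50081145 unique molecular identifiers (UMIs, each standing for 1 captured RNA molecule), and the OIR one 7283 barcodes with 49773742 UMIs. After filtering, 8585 and 6132 cells were used, with medians of 1648 and 2828.5 UMIs. Although the samples carry the label of retinal microglia, microglia-like cells were 839 of the control cells (9.77%) and 588 of the OIR cells (9.59%), and rod-like cells were the most common class (6686 and 3600). Whether all of these cells came from the CD11b-selected fraction is not known here. All 12 microglia markers had UMIs in both libraries. In microglia-like cells those markers summed to 35281 CPM (UMIs scaled to the same total in every class and library) in control and 24935 CPM in OIR. The 9 border macrophage markers (6 detected in control, all 9 in OIR) summed to 98.0 and 381 CPM there, and the 8 neutrophil markers (1 and 5 detected) to 0.15 and 61.8 CPM. RNA of 4 Y-linked genes was 61.5 CPM in control against 16.1 CPM in OIR, and Xist was at 961 and 933 CPM. The part of these differences in the interferon results was not tested. The libraries shared 30 cell barcodes among the cells used, 1 of them a microglia-like cell of OIR.

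Microglia-like cells of OIR held more interferon response RNA than those of control, with Ifi27l2a among the higher members, but the transcription factors Irf1 and Irf9 were lower. Rsad2 and Cxcl10 were higher too, but their ratios rested in large part on 1 OIR cell. Without that cell the log2 ratio fell from 2.18 to 1.03 for Rsad2 and from 1.60 to 0.76 for Cxcl10, and without the Spp1-led clusters Cxcl10 was at 0.06 (-0.39 to 0.49). The 36 genes together took 1079 CPM in control (7180 UMIs) and 1432 CPM in OIR (8186 UMIs), a log2 ratio of 0.41 (0.36 to 0.45). Without that 1 OIR cell this summed ratio was 0.28. Over the alternatives run it lay between 0.22, without the Spp1-led clusters, and 0.58, with cycling myeloid cells added. A member was counted as higher or lower where it was at least 1.5-fold apart with an interval of the log2 ratio that excluded 0, among genes with at least 20 UMIs over both libraries. By that rule 12 of the 34 members past the minimum were higher in OIR and 3 lower, while over all 11227 genes past it 12.3% were higher and 16.1% lower. The median log2 ratio was 0.35 for the 34 members and -0.09 for all genes, and 22 of the 34 ratios lay above 0. Ifi44 and Ifi47 stayed under the minimum. The cells of the class came mostly from different clusters in the 2 libraries. In control 562 of 839 were in clusters led by homeostatic genes, where OIR had 70 cells. In OIR 206 of 588 were in a cluster led by Spp1, Mmp12 and Adm, where control had 12. With coarser clustering (resolution 0.5) 4 members were higher and 1 lower, but only 1 homeostatic-led cluster, of 564 control and 78 OIR cells, kept the class name. A cluster that held Mmp12 beside neutrophil genes (21 and 227 cells) was then named neutrophil, and clusters with little RNA or with photoreceptor RNA were unnamed. This setting was thus close to the homeostatic-led cells alone.

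**Figure D1:**
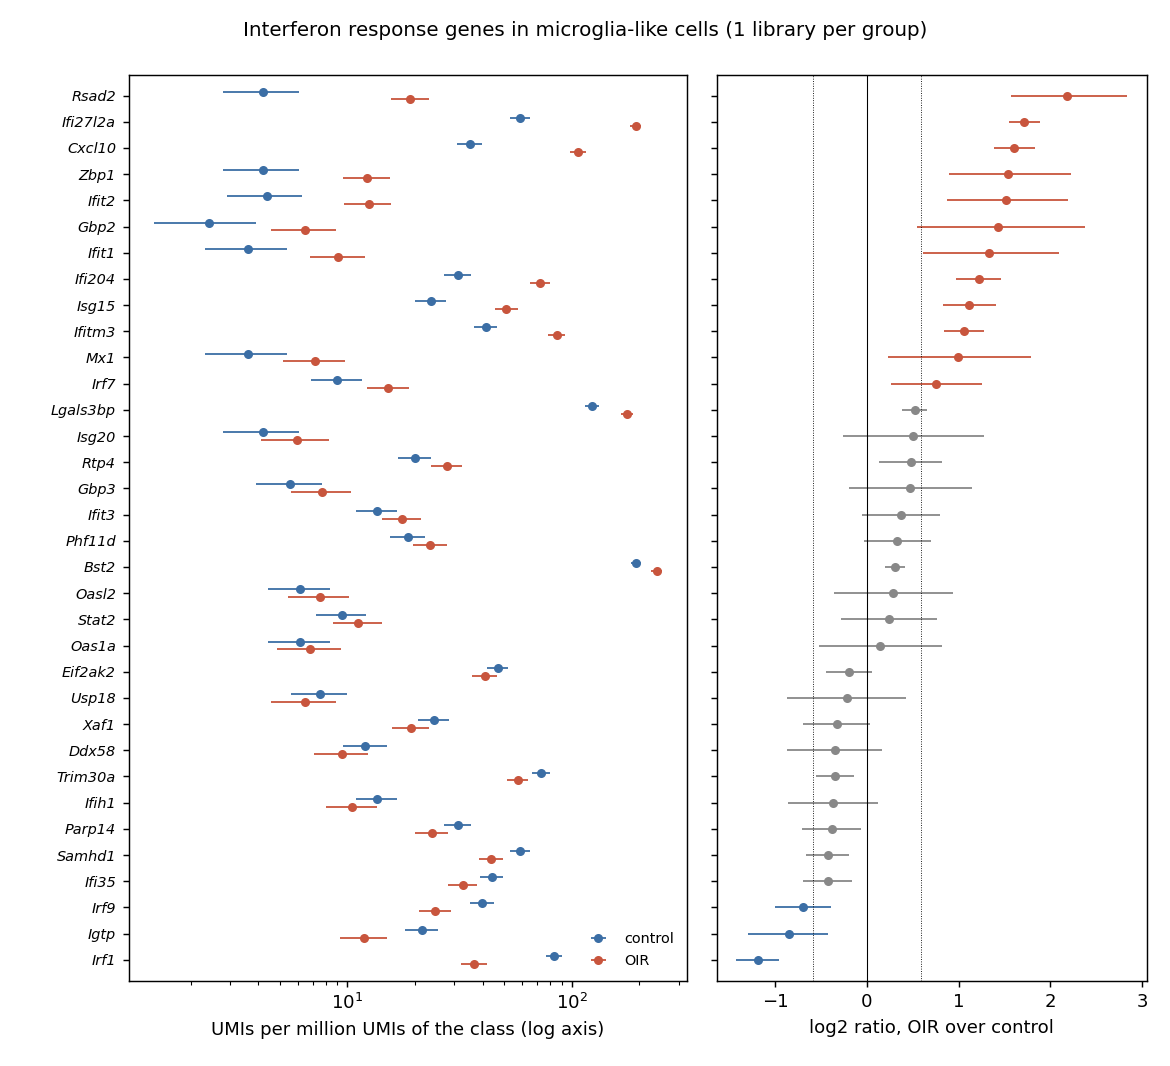
Level of each member in microglia-like cells of control and OIR (left, CPM on a log axis, points with 95% Poisson intervals) and the log2 ratio of OIR over control (right, with 95% conditional binomial intervals that cover counting error only). Rsad2 has the highest ratio (2.18) and Irf1 the lowest of the 34 members past the minimum (-1.19), and the abundant Bst2 lies near 0.31.

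Among the antiviral effectors, Rsad2, which codes for viperin, an enzyme that makes a chain-terminating nucleotide, had a log2 ratio of 2.18, and 1.03 (0.33 to 1.75) without 1 OIR cell, below the 1.72 of Ifi27l2a without that cell. Its level was 4.21 CPM in control (28 UMIs, 95% interval 2.80 to 6.08) and 19.1 CPM in OIR (109 UMIs, 15.7 to 23.0), a fold of 4.53. Ifit1 and Ifit2, proteins that bind foreign RNA, went from 3.61 to 9.10 CPM and from 4.36 to 12.4 CPM (log2 ratios 1.34 and 1.51). Without the same OIR cell these ratios were 0.68 (-0.12 to 1.5) and 0.17 (-0.63 to 0.97), and neither gene was counted as higher. With interferon genes kept in the clustering Ifit2 was at 0.45 (-0.47 to 1.38). Their neighbour Ifit3 stood at 13.5 and 17.5 CPM, an interval of the log2 ratio from -0.05 to 0.80, and was not counted as apart. Mx1, of the family of dynamin-like GTPases, had 24 and 41 UMIs (3.61 and 7.17 CPM, log2 ratio 0.99, 0.23 to 1.78). With cells called doublets kept it was at 0.80 (-0.02 to 1.64) and was not counted as higher. Ifitm3, a membrane protein that hinders virus fusion, was 2.07-fold higher, with 41.3 CPM in control and 85.7 CPM in OIR. Ifi27l2a, a small membrane protein of the ISG12 family, was one of the most abundant members and was 3.28-fold higher, with 391 UMIs (58.7 CPM, 53.1 to 64.9) in control and 1101 UMIs (193 CPM, 181 to 204) in OIR.

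Other effectors did not follow these genes. Bst2 (tetherin), which holds budding virus at the cell surface, had the highest level of the list in both libraries, 194 CPM in control and 239 CPM in OIR, with a log2 ratio of only 0.31 (0.19 to 0.42). The nucleases and synthetases Oasl2 (6.16 and 7.52 CPM), Oas1a (6.16 and 6.82 CPM) and Isg20 (4.21 and 5.95 CPM) had intervals that included 0. Samhd1, which breaks down the building blocks of DNA, had 58.7 CPM in control and 43.7 CPM in OIR (log2 ratio -0.43, -0.66 to -0.19). The RNA-activated kinase Eif2ak2 (PKR) stood at 46.7 and 40.9 CPM, and Trim30a, a ubiquitin ligase family member, at 73.2 and 57.4 CPM. Xaf1, a partner of the apoptosis inhibitor Xiap, stood at 24.2 and 19.2 CPM, Parp14, an ADP-ribosyltransferase, at 31.0 and 23.8 CPM, and Ifi35 at 44.0 and 32.7 CPM. These 6 genes had ratios below 0 but under 1.5-fold. Rtp4, a chaperone of membrane receptors, was 19.98 and 27.8 CPM (log2 ratio 0.48, 0.14 to 0.82), and Phf11d was 18.6 and 23.4 CPM.

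Of the members that sense nucleic acids, Zbp1 and Ifi204 were counted as higher. Zbp1, which binds Z-form nucleic acid and can start necroptosis through Ripk3, was 2.91-fold higher in OIR, with 28 UMIs in control (4.21 CPM, 2.80 to 6.08) and 70 UMIs in OIR (12.2 CPM, 9.55 to 15.5). Ifi204, a DNA-binding protein of the PYHIN family, was 2.32-fold higher (31.1 and 72.3 CPM). The RNA sensors Ddx58 (RIG-I) and Ifih1 (MDA5) had 12.02 and 9.45 CPM (log2 ratio -0.35, -0.87 to 0.17) and 13.5 and 10.5 CPM (-0.37, -0.86 to 0.12), with intervals that included 0.

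Of the 4 transcription factors in the list, only Irf7 was higher. Irf7, which amplifies production of type I interferon, had 60 UMIs in control (9.02 CPM) and 87 in OIR (15.2 CPM), a log2 ratio of 0.76 (0.26 to 1.25). Irf1, a direct target of interferon gamma and of NF-kappaB, was 2.27-fold lower, with 556 UMIs in control (83.5 CPM, 76.7 to 90.8) and 210 UMIs in OIR (36.7 CPM, 31.9 to 42.1). Irf9, the DNA-binding subunit of the complex with Stat2, was 1.62-fold lower (40.0 and 24.7 CPM), and Stat2 stood at 9.47 and 11.2 CPM with an interval that included 0.

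The ubiquitin-like modifier Isg15 was 2.17-fold higher, at 23.6 CPM in control (20.04 to 27.6) and 51.1 CPM in OIR (45.4 to 57.3). Usp18, the protease that removes it and that also restrains the interferon receptor, had 50 and 37 UMIs (7.51 and 6.47 CPM) and an interval that included 0. Among the secreted products, Cxcl10, the chemokine that draws T cells through Cxcr3, was 3.04-fold higher, with 233 UMIs (35.0 CPM) in control and 608 UMIs (106 CPM) in OIR. Lgals3bp, a secreted partner of galectin-3, had 123 and 177 CPM (log2 ratio 0.52, 0.39 to 0.66), short of 1.5-fold. The GTPases that are known mainly as targets of interferon gamma went different ways. Gbp2 had 16 and 37 UMIs (2.40 and 6.47 CPM, log2 ratio 1.43), Gbp3 stood at 5.56 and 7.70 CPM, and Igtp was 1.81-fold lower (21.5 and 11.9 CPM).

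Within the homeostatic-led clusters, 562 control and 70 OIR cells, few members were apart and Cxcl10 went the other way. Of 31 members past the minimum 3 were higher in OIR and 1 lower, with 4.36% and 3.66% of all genes, and the median log2 ratio was 0.10 against -0.02 over all genes. Ifi27l2a (54.7 and 152 CPM, log2 ratio 1.47, 1.09 to 1.84), Ifi204 (28.0 and 75.9 CPM, 1.44, 0.88 to 1.96) and Mx1 (15 and 7 UMIs, 2.96 and 14.0 CPM) were the higher ones. Cxcl10 had 155 UMIs in control (30.6 CPM) and 2 in OIR (3.996 CPM), a log2 ratio of -2.94 (-6.00 to -1.06). Over the whole class its 233 control UMIs came from only 39 of 839 cells, and 10 cells held 66.1% of them. Among 70 OIR cells its level can thus depend on whether a few rich cells were caught, which the interval does not cover. Isg15 (21.1 and 19.98 CPM), Bst2 (185 and 174 CPM) and Ifitm3 (29.6 and 32.0 CPM) were level within their intervals, and Irf1 stood at 91.6 and 65.9 CPM (log2 ratio -0.48, -1.03 to 0.04). Irf9 (-0.65, -1.58 to 0.16) and Igtp (-0.70, -2.05 to 0.39) also had intervals that included 0. None of the 3 members lower over the whole class was counted as lower here. The higher levels of Isg15, Ifitm3 and Cxcl10 over the whole class were thus not seen between the homeostatic-led cells of the 2 libraries, while that of Ifi27l2a was.

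The Spp1-led cluster held 206 OIR cells and only 12 control cells, so members are given by value. A further 106 OIR cells and 1 control cell with little RNA resembled it. In its OIR cells Cxcl10 stood at 138 CPM (542 UMIs, of which 1 cell held 269, and 69.9 CPM without that cell), Isg15 at 60.2 CPM, Ifitm3 at 85.5 CPM, Ifi27l2a at 179 CPM and Irf1 at 35.5 CPM. The homeostatic-led cells of the same library held 3.996 CPM of Cxcl10, 19.98 CPM of Isg15, 32.0 CPM of Ifitm3, 152 CPM of Ifi27l2a and 65.9 CPM of Irf1. The 12 control cells of the Spp1-led cluster held 0 UMIs of Cxcl10, 5 of Isg15 and 10 of Ifi27l2a. Clusters with little RNA per cell (129 control and 95 OIR cells) had 8 members past the minimum. Ifi27l2a was higher there (102 and 472 CPM), as 8.48% of all genes were. By the count Ifitm3 (189 and 109 CPM) and Cxcl10 (41 and 0 UMIs) were lower, as 3.74% of all genes were, but all 41 Cxcl10 UMIs and 19 of the 50 control UMIs of Ifitm3 lay in 1 cell. Without the richest cell of each library, an alternative chosen after seeing the data, Cxcl10 had 0 UMIs in both and Ifitm3 118.6 and 94.0 CPM, an interval of the log2 ratio from -1.26 to 0.55. Clusters that also held photoreceptor RNA (135 and 111 cells) had 3 of 24 members higher and 4 lower, with 8.71% and 9.62% of all genes. Ifi27l2a (64.4 and 165 CPM), Ifitm3 (56.8 and 128 CPM) and Cxcl10 (31.4 and 67.1 CPM) were higher, and Ifit3 (28.0 and 7.46 CPM), Ifih1 (16.1 and 4.97 CPM), Irf1 (73.8 and 43.5 CPM) and Samhd1 (73.8 and 47.2 CPM) lower. Of the 33 control UMIs of Ifit3, 21 lay in 1 cell, and without the richest cell of each library its levels were 10.2 and 7.79 CPM, an interval of the log2 ratio from -2.09 to 1.13. Rod markers summed to 1991 CPM in control and 2515 CPM in OIR over the whole microglia-like class, and their part in these values was not tested.

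A few cells carried much of the antiviral RNA. Ifit1, Ifit2, Ifit3, Isg15 and Rsad2, 5 genes chosen after their values were seen, summed to 328 UMIs in control and 624 in OIR, and the 10 richest cells of each library held 63.1% and 62.0% of them. Cells with at least 5 of these UMIs were 11 of 839 in control (1.31%, exact interval 0.656% to 2.33%) and 19 of 588 in OIR (3.23%, 1.96% to 5.0%). In OIR 14 of the 19 lay in the Spp1-led cluster (6.80% of its cells) and 0 among the 70 homeostatic-led cells. With this 0 set to 3 counts the share would be 4.29%, which is an approximate bound and not an exact interval. In control 7 of the 11 were homeostatic-led (1.25% of 562). The median depth of the OIR cells was 15394.5 UMIs in the Spp1-led cluster and 6847.5 in the homeostatic-led ones, and the part of depth in these counts was not tested.

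**Figure D2:**
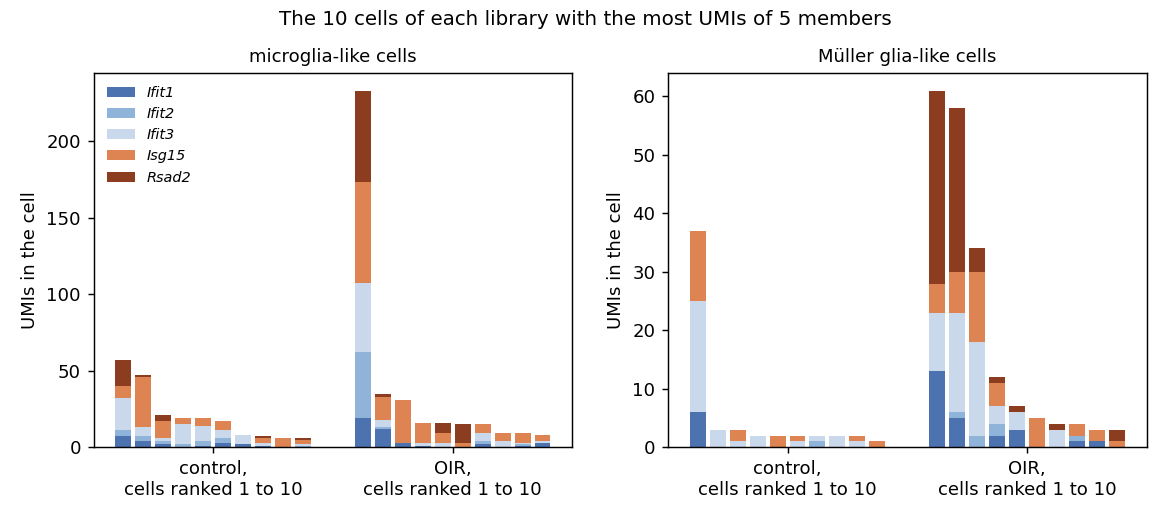
UMIs of Ifit1, Ifit2, Ifit3, Isg15 and Rsad2 (stacked bars, 1 bar per cell) in the 10 richest microglia-like cells (left) and Müller glia-like cells (right) of each library. A single OIR microglia-like cell stands apart with 233 of these UMIs, the highest control cell has 57, and in Müller glia-like cells the highest bars are 37 in control and 61 in OIR.

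One OIR cell of the Spp1-led cluster stood out, with 12137 UMIs and 32 of the 36 members detected. Its naming as microglia-like is less certain, as it had only 52 UMIs of the 12 microglia markers. The next richest OIR cell, of 12147 UMIs, had 445 of them. The cell that stood out held 19 UMIs of Ifit1, 43 of Ifit2, 45 of Ifit3, 66 of Isg15, 60 of Rsad2, 16 of Usp18 and 269 of Cxcl10, but 0 of Ifi27l2a. Its 727 member UMIs were 5.99% of its RNA and 8.88% of all member UMIs of the OIR microglia-like cells, of whose RNA it was 0.212%. This single cell held 44.2% of the Cxcl10 UMIs of the class, 55.0% of Rsad2 and 60.6% of Ifit2. Without it, an alternative chosen after seeing the data, 10 members were higher and 4 lower and the median log2 ratio was 0.17. The ratios of Rsad2, Cxcl10 and Isg15 without it were 1.03, 0.76 and 0.75. The highest control cell, among those with photoreceptor RNA, had 6021 UMIs, 57 UMIs of the 5 genes and also 32 members. It differed in holding 178 UMIs of the microglia markers.

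The number of cells behind a level differed between members. Cxcl10 came from 39 control and 51 OIR cells, and 10 cells held 66.1% and 76.8% of it. Rsad2 came from 9 and 27 cells. Ifi27l2a was found in 159 control and 236 OIR cells, with 26.6% and 26.1% in the 10 richest. Bst2 was found in 509 and 347 cells (12.2% and 17.4%) and Irf1 in 312 and 131 cells (12.8% and 18.6%), so the levels of Ifi27l2a, Bst2 and Irf1 rested on many cells and those of Cxcl10 and Rsad2 on few.

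After each cell was thinned to 1500 UMIs, at least 3 different members were found in 106 of 784 microglia-like cells of control (13.5%, 11.2% to 16.1%) and in 91 of 508 of OIR (17.9%, 14.7% to 21.5%), and these intervals overlapped. Cells too shallow for this numbered 55 and 80, and before thinning the shares were 66.7% and 60.7%. Thinned cells with a UMI of Ifi27l2a were 48 of 784 in control (6.12%) and 104 of 508 in OIR (20.5%), where before thinning the shares were 19.0% and 40.1%. In rod-like cells the thinned share of Ifi27l2a was 1 of 2957 (0.0338%) and 12 of 1791 (0.67%), and the part of free RNA in it was not tested. The median depths before thinning were 1406.5 and 1492.5 UMIs there against 6601 and 5753.5 in microglia-like cells. The shares of Isg15 were 1.91% and 5.12%, of Cxcl10 2.42% and 3.74%, and of Bst2 21.7% and 25.2%. Among OIR cells with at least 3 members, Pf4 was the gene outside all lists with the highest ratio to the other cells (337 and 40.0 CPM, log2 3.08), and it was among the 10 highest in all 10 other random thinnings. Pf4 is a border macrophage marker. In control, H2-Ab1 (132 and 24.6 CPM) and Cd74 (252 and 53.1 CPM), which serve antigen presentation by MHC class II, came first, in 1 and 8 of the 10 other thinnings. The next in OIR were Rgs1, Ms4a6c, Rilpl2, Spp1, Slc12a9, Stab1, Mbnl2, Fam46a and Il1b, and in control Hmox1, Copb2, Id2, Hnrnpul1, Eprs, Alyref, Rab10 and Dnajb11, each in at most 4 of the 10 other thinnings.

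**Figure D3:**
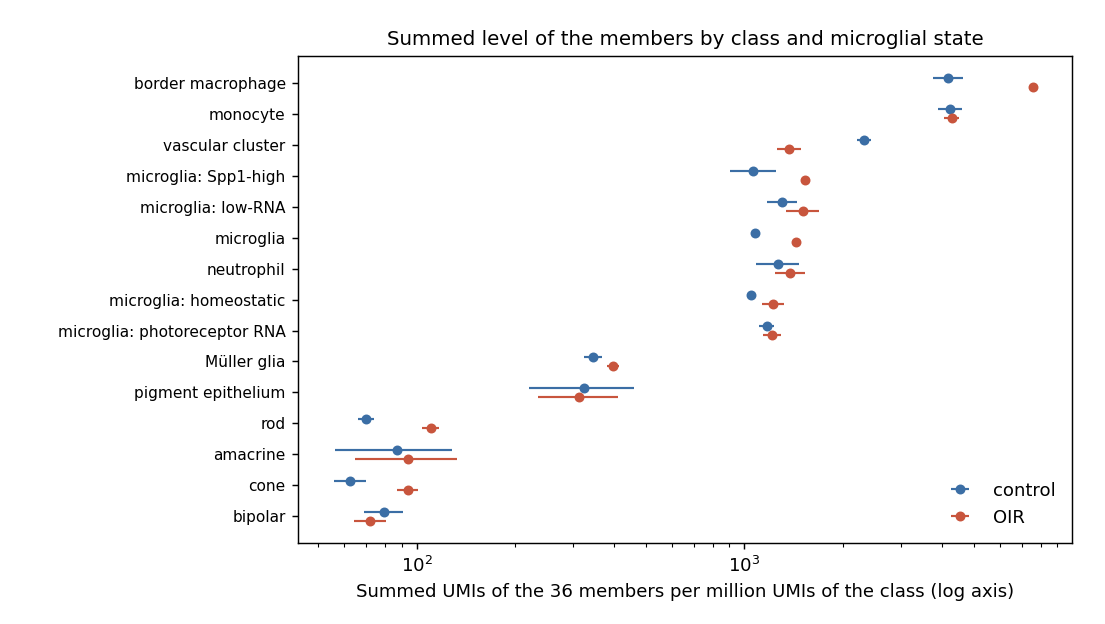
Summed level of the 36 members by cell class in control and OIR (CPM on a log axis, points with 95% Poisson intervals that cover counting error only). Border macrophage-like and monocyte-like cells lie highest, at 4190 to 7595 CPM, and rod-like, cone-like and bipolar-like cells lowest, at 62.7 to 110 CPM.

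Border macrophage-like and monocyte-like cells held several times more interferon response RNA per UMI than microglia-like cells, but there were few of them. Border macrophage-like cells (13 control and 71 OIR) held 4190 CPM of the 36 genes in control against 7595 CPM in OIR (log2 ratio 0.86, 0.70 to 1.02). Ifi27l2a alone made up much of the OIR level, with 45 control UMIs (537 CPM) and 2627 OIR UMIs (3104 CPM, log2 ratio 2.53, 2.11 to 2.99). Ifitm3 went from 215 CPM (18 UMIs) to 1046 CPM (885 UMIs), Ifit3 had 3 and 97 UMIs (log2 ratio 1.68, 0.09 to 3.98), and Bst2 stood at 1409 and 1224 CPM. The class's own 9 markers summed to 3629 CPM in the 13 control cells and 13879 CPM in OIR, and microglia markers to 26368 and 16829 CPM, so the class held different marker levels in the 2 libraries, whose part in these values was not tested. Of the 71 OIR cells 17 had at least 5 UMIs of the 5 antiviral genes (23.9%, 14.6% to 35.5%), and 2 of the 13 control cells did.

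Monocyte-like cells, 12 in control and 32 in OIR, held 4236 and 4280 CPM of the list. Their most abundant member was Ifitm3, at 2038 and 2042 CPM. Ifi27l2a stood at 554 and 618 CPM and Samhd1 at 546 and 438 CPM there. Neutrophil-like cells (12 and 18) had 1266 and 1380 CPM, with 7 and 58 UMIs of Ifitm3 (52.1 and 226 CPM, log2 ratio 2.12, 0.98 to 3.49). Cycling myeloid cells (6 and 63) held 2 and 250 UMIs of Ifitm3 and 9 and 357 UMIs of Bst2. These counts came from very different totals, 44805 UMIs in control and 777154 in OIR. The 9 border macrophage markers (1 detected in control, all 9 in OIR) summed to 44.6 and 4179 CPM in this class, and microglia markers to 34617 and 21396 CPM. The part of these differences in the member values was not tested.

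**Figure D4:**
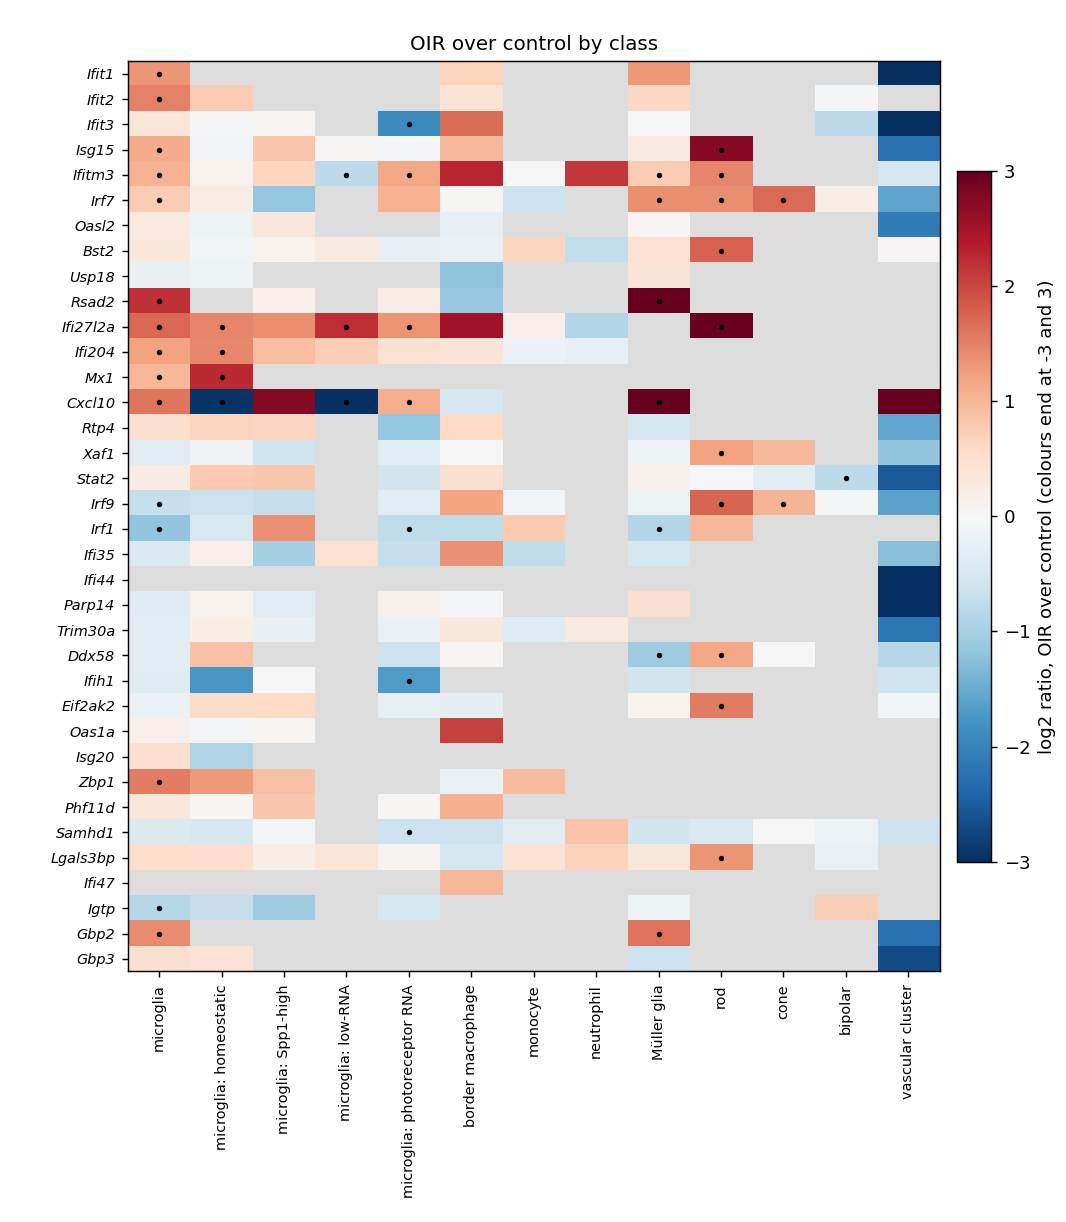
Log2 ratio of OIR over control for each member (rows) and cell class (columns), with grey where fewer than 20 UMIs were counted over both libraries or no ratio could be given, and with dots where the member was counted as higher or lower in a class of at least 50 cells per library. Ifi27l2a is red across the microglia-like columns, Irf7 is red in Müller glia-like, rod-like and cone-like cells, and most of the vascular column is blue.

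Müller glia-like cells, 260 in control and 391 in OIR, took 346 and 397 CPM of the list (log2 ratio 0.20, 0.09 to 0.31). Of 26 members past the minimum 5 were higher in OIR and 2 lower, against 8.86% and 12.9% of all genes, and the median log2 ratio was 0.12 against -0.04. The sign of both the summed ratio and the median changed with the processing. They were -0.42 and -0.35 with a stricter cell filter, -0.07 and -0.29 by the mean over cells, and -0.0035 and -0.09 without the 10 cells of each library richest in the 5 antiviral genes. Irf7 stood at 6.94 CPM in control (20 UMIs in 13 cells) and 18.1 CPM in OIR (99 UMIs in 71 cells), a log2 ratio of 1.38 (0.68 to 2.15). Ifitm3 went from 53.1 to 90.3 CPM and Gbp2 from 2.78 to 8.59 CPM (8 and 47 UMIs). Irf1 (36.8 and 20.1 CPM) and Ddx58 (10.4 and 4.94 CPM) were lower. In both Müller glia-like and microglia-like cells Irf7 was counted as higher and Irf1 as lower. With a stricter cell filter (at least 1000 genes and at most 5% mitochondrial UMIs), which kept 30 control cells, 1 member was higher, and Ifitm3 and Gbp2 had log2 ratios of -0.30 and -0.56.

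The remaining Müller glia-like differences rested on very few cells. Rsad2 had 3 UMIs in control and 73 in OIR (log2 ratio 3.68, 2.08 to 5.99), all 73 from 10 cells, and in OIR 3 cells alone held 33, 28 and 4 of them. Without the 10 cells of each library that were richest in the 5 antiviral genes, Rsad2 had 3 UMIs in each library. Cxcl10 had 0 UMIs in control and 53 in OIR, 9.31-fold higher with the 0 set to 3 counts, and came from 12 other cells, since none of those 10 held any. Cells with at least 5 UMIs of the 5 genes were 1 of 260 in control (0.385%) and 6 of 391 in OIR (1.53%, 0.565% to 3.31%). Microglia markers summed to 67.0 and 81.5 CPM in Müller glia-like cells, and the 10 richest OIR cells held 0 to 4 UMIs of them. Of the rod markers the 10 richest cells held 1 to 1329 UMIs in control and 5 to 1658 in OIR. The OIR cells with 33, 28 and 4 UMIs of Rsad2 held 427, 138 and 665 rod marker UMIs, and the richest control cell held 2. The part of rod RNA in these values was not tested. The 9 markers of Müller glia summed to 29449 CPM in control and 13752 CPM in OIR in this class, which moved with these results and whose part was not tested.

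Photoreceptors held the list at a far lower level than microglia-like cells, yet Irf7 stood no lower in rod-like and cone-like cells than in microglia-like cells of the same library. The 36 genes summed to 70.2 CPM in control and 110 CPM in OIR in rod-like cells and to 62.7 and 94.0 CPM in cone-like cells. Irf7 was at 11.1 CPM in control rod-like cells (197 UMIs) and 29.0 CPM in OIR (311 UMIs), a log2 ratio of 1.39 (1.13 to 1.66). In cone-like cells it was at 9.37 CPM (45 UMIs) and 30.3 CPM (224 UMIs), a log2 ratio of 1.69 (1.23 to 2.19). Irf9 was higher as well, from 4.66 to 15.6 CPM in rod-like cells (log2 ratio 1.74, 1.35 to 2.14) and from 3.75 to 7.58 CPM in cone-like cells (1.02, 0.23 to 1.87). Stat2, the partner of Irf9, was level at 18.2 and 18.3 CPM in rod-like cells and stood at 17.5 and 13.9 CPM in cone-like cells. Irf9 was thus counted as lower in microglia-like cells as a whole and as higher in photoreceptors. Between the homeostatic-led microglia-like cells its log2 ratio was -0.65 (-1.58 to 0.16), which was not counted as apart. Bipolar-like cells, second-order neurons, showed neither difference, with Irf7 at 3.74 and 4.21 CPM and Irf9 at 4.87 and 4.68 CPM.

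By the count, 10 of 13 members past the minimum were higher in OIR rod-like cells and 0 lower, with 9.83% and 2.13% of all genes, and under the stricter filter 5 of 8 were higher, with medians of the log2 ratio of 1.39 and 1.40. In cone-like cells 2 of 6 were higher and 0 lower, with 5.18% and 3.26%, and in bipolar-like cells 0 of 8 were higher and 1 lower (Stat2, 15.4 and 8.90 CPM), with 4.74% and 6.84%. Most of the rod-like members were very low. The 12 microglia markers stood in rod-like cells at 0.213% of their microglia-like level in control and 0.457% in OIR. Ifi27l2a stood at 0.668% and 1.79% of its own microglia-like level (0.393 and 3.45 CPM), Bst2 at 0.464% and 1.29% (0.898 and 3.08 CPM), Isg15 at 1.19% and 3.65% (0.281 and 1.86 CPM) and Ifitm3 at 3.26% and 4.35% (1.35 and 3.73 CPM). The part of free RNA in these 4 genes was not tested. Irf7 in rod-like cells was at 123% and 190% of its microglia-like level, Stat2 at 192% and 163%, Irf9 at 11.7% and 63.1% and Samhd1 at 44.1% and 42.8%. These shares lie above those of the markers, as do those of the 4 genes before them and of other members. The others counted as higher in rod-like cells were Ddx58 (1.12 and 2.52 CPM), Xaf1 (0.842 and 1.96 CPM), Eif2ak2 (0.505 and 1.49 CPM) and Lgals3bp (0.561 and 1.40 CPM), each with at most 27 UMIs in either library. Their shares of the microglia-like level were 9.33% and 26.6% for Ddx58, 3.48% and 10.2% for Xaf1, 1.08% and 3.64% for Eif2ak2, and 0.456% and 0.792% for Lgals3bp. The part of free RNA was not tested for any member.

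In OIR, Irf7 and Irf9 were highest in different rod-like cells. One cluster of rod-like cells, led by the stress gene Edn2, held 1171 OIR cells and 33 control cells. In its OIR cells Irf9 stood at 32.2 CPM (26.7 to 38.6), against 7.04 CPM (5.23 to 9.28) in the 2429 other OIR rod-like cells and 4.52 CPM (3.59 to 5.63) in the 6653 other control ones. Irf7 was 21.2 CPM (16.7 to 26.5) in the Edn2-led cells of OIR, 33.0 CPM (28.9 to 37.5) in the other OIR cells and 11.1 CPM (9.59 to 12.8) in the other control cells. Stat2 stood at 25.1, 14.8 and 18.3 CPM in the order Edn2-led OIR, other OIR and other control cells. Between these OIR cells the intervals of each of Irf9, Stat2 and Irf7 did not overlap, Irf9 and Stat2 being higher in the Edn2-led cells and Irf7 in the others. Stat3, which gp130 cytokines activate, and its target Socs3 had 224, 90.5 and 26.3 CPM and 80.2, 12.5 and 2.49 CPM in the same order. The 33 control cells of the Edn2-led cluster had 76.9 CPM of Socs3 (38.4 to 138), 154 CPM of Stat3 (96.4 to 233) and 21.0 CPM of Irf9 (3 UMIs, 4.32 to 61.3), so Socs3 and Irf9 had overlapping intervals in the Edn2-led cells of both libraries. The Edn2-led cluster was made from these cells without interferon genes, so the grouping used other genes of the same cells.

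**Figure D5:**
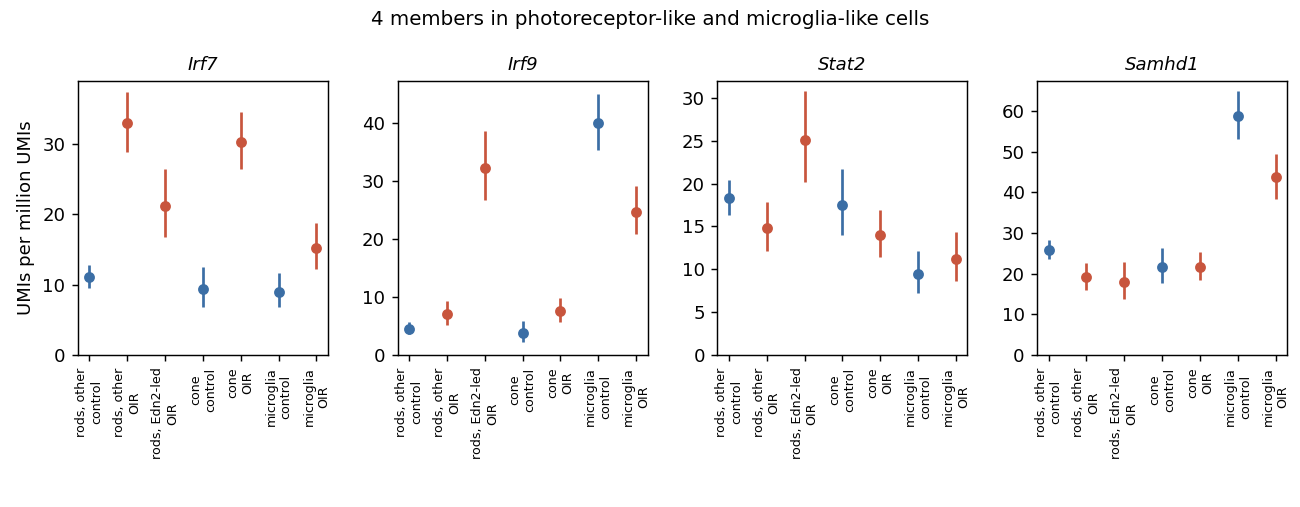
Levels of Irf7, Irf9, Stat2 and Samhd1 (CPM) in rod-like cells outside and inside the Edn2-led cluster, in cone-like and in microglia-like cells, with control in blue and OIR in red and with 95% Poisson intervals that cover counting error only. Irf7 lies higher in OIR than in control photoreceptors (33.0 against 11.1 CPM in the other rod-like cells, 30.3 against 9.37 CPM in cone-like cells), and Irf9 is at 32.2 CPM in the Edn2-led OIR cells against 7.04 CPM in the other OIR rod-like cells.

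A small cluster with endothelial and pericyte genes, led by Cldn5, Mgp and Rgs5 and given no cell type name, held 47 control and 15 OIR cells. The list summed to 2320 CPM there in control and 1371 CPM in OIR. Of all genes past the minimum 8.86% were higher in OIR and 16.6% lower there, with a median log2 ratio of -0.19, and members are given by value. Isg15 had 91 and 11 UMIs (129 and 27.4 CPM), Gbp3 56 and 5 UMIs (79.4 and 12.4 CPM), Gbp2 33 and 4 UMIs, Oasl2 30 and 4 UMIs and Ifit1 49 and 2 UMIs (log2 ratio -3.80, -6.89 to -1.87). Ifitm3 was abundant in both (956 and 672 CPM), Bst2 was level (271 and 276 CPM), and Cxcl10 had 0 and 21 UMIs. The UMIs in control and OIR were 23 and 1 for Ifit3, 19 and 1 for Ifi44, 24 and 1 for Parp14, 20 and 2 for Stat2, 24 and 3 for Trim30a, 21 and 4 for Irf7, 32 and 6 for Irf9, 36 and 7 for Rtp4, 60 and 15 for Xaf1 and 51 and 12 for Ifi35. Endothelial markers summed to 8821 CPM in control and 4091 CPM in OIR and pericyte markers to 5160 and 4661 CPM, and the part of this difference in the member values was not tested.

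Among the other genes of the interferon pathway, more were lower than higher in OIR microglia-like cells taken as a whole. Over all genes past the minimum 12.3% were higher and 16.1% lower there. In microglia-like cells the 21 interferon genes had 2 UMIs in each library, so interferon RNA was at the edge of detection there at this depth. Of 5 receptor chains past the minimum 0 were higher and 2 lower, Ifngr1 (603 and 302 CPM, log2 ratio -1.0) and Ifngr2 (214 and 138 CPM), and Il10rb stood at 143 and 107 CPM. Of 10 kinases and transcription factors 5 were lower, among them Irf8 (615 and 315 CPM), a factor of microglial identity, and Irf3 (61.9 and 32.5 CPM), the factor that induces interferon beta. Irf4 was farther apart but had only 20 and 8 UMIs and an interval that included 0. Of 12 sensors and adaptors 1 was higher, the kinase Ikbke (3 and 17 UMIs, log2 ratio 2.72, 0.93 to 5.14), and 5 lower, led by Tmem173 (STING, 181 and 61.1 CPM, log2 ratio -1.57) and Tlr3 (22.1 and 8.75 CPM). Of 9 restraints 4 were lower, led by Socs3 (559 and 242 CPM), Socs1 (16.8 and 7.52 CPM) and the phosphatase gene Ptpn6 (222 and 131 CPM). The class lay mostly in different clusters in the 2 libraries, and between the homeostatic-led cells fewer of these genes were apart. There 0 of 5 receptor chains, 1 of 10 kinases and transcription factors, 1 of 11 sensors and adaptors and 1 of 9 restraints were lower, with 3.66% of all genes.

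Of 44 other interferon-stimulated genes past the minimum 8 were higher and 11 lower, with a median log2 ratio of -0.18. The farthest apart were Ifitm2 (13.8 and 104 CPM, log2 ratio 2.91), a neighbour in family of Ifitm3, and Ifi207 (6.31 and 41.1 CPM) and Ifi211 (3.61 and 11.4 CPM), of the same PYHIN family as Ifi204. Of 9 GTPases and proteasome genes typical of interferon gamma 0 were higher and 4 lower, led by Irgm2 (14.9 and 6.30 CPM), Gbp5 (4.06 and 1.75 CPM) and Gbp9 (6.61 and 3.15 CPM). The background shares of all genes were 12.3% higher and 16.1% lower, as above. Between the homeostatic-led cells 2 of 36 other interferon-stimulated genes were higher and 2 lower, and of 9 GTPases and proteasome genes 1 was higher and 0 lower. Of all genes 4.36% were higher and 3.66% lower there.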

How the data were processed

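Each of the 2 libraries, 1 per group, was deposited as whole UMI counts for every gene in every barcode. Per the submitters' processing notes, the authors used Cell Ranger (version 3.0.2) and build mm10. The sources used here do not give the annotation release, the rule for calling cells or the handling of reads shared by gene copies. No normalization had been applied to the deposited counts, and CPM was computed here from them.

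The cell filter asked for 500 or more genes and no more than 10% mitochondrial UMIs, which left 9454 of 10826 barcodes in control and 6516 of 7283 in OIR. Scrublet, run through scanpy 1.11.5 (Python 3.11.15), marked 1 and 0 doublets at its automatic threshold, so the barcodes with the highest scores were removed at 0.8% per 1000 cells (938 and 424, which took 869 and 384 of the filtered cells). Both libraries were clustered together without integration on 2000 variable genes, from which interferon genes were left out. The steps were 30 principal components, 20 neighbours and Leiden clustering (leidenalg 0.10.2) at resolution 1. Clusters were named where marker genes of a class led them by 0.5 or more in mean log2 fold, and immune cells were clustered again for states. Counts were summed per class and library and scaled to the class total. Levels carry exact Poisson intervals, ratios exact conditional binomial intervals and shares exact Clopper-Pearson intervals (scipy 1.17.1), at 95%. A count of 0 was replaced by 3 counts in a ratio, and in the bound on the share of homeostatic-led OIR cells, which are then approximate. The rule for counting a gene as higher or lower was run on simulated Poisson counts. These lack the concentration of UMIs in few cells, so the run cannot check the intervals for that. PCR duplicates are removed by UMIs, but the intervals still cover counting error only. Classes with under 50 cells in either library are given by values.

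The members and lists were chosen with earlier results of these data known. Per-library values are given for members with at least 50 UMIs in microglia-like cells, for members at least 2-fold apart with an interval excluding 0 in other classes, and for the 3 genes of each pathway list with at least 20 UMIs that were farthest apart, in microglia-like cells. Genes outside all lists are the 10 with the highest ratio in cells with at least 3 members. Other members are named to complete a family or a comparison. Cgas and Sting1 were counted under the older symbols Mb21d1 and Tmem173. Gene positions come from GENCODE on mm10 and promoter sequences from RefSeq on GRCm38.p6. Values of 1 gene of the pathway lists are not reported here.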

Additional observations from a re-analysis of the deposited data

Results flagged for a closer look

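Some members were counted as apart in opposite directions in different cell classes, and in no case was the difference between classes tested. Ifitm3 had log2 ratios of OIR over control of 1.05 in microglia-like cells, 0.77 in Müller glia-like cells, 1.47 in rod-like cells and 1.17 in microglia-like cells with photoreceptor RNA, but -0.79 in microglia-like cells with little RNA, where 1 cell held 19 of the 50 control UMIs and the ratio without the richest cell of each library was -0.34 (-1.26 to 0.55). Cxcl10 had 1.60 in microglia-like cells as a whole and 1.10 in those with photoreceptor RNA. In Müller glia-like cells it had 3.22, with the control count of 0 set to 3. But it had -2.94 in homeostatic-led microglia-like cells, from 155 control and 2 OIR UMIs. Over the whole class its 233 control UMIs lay in only 39 cells. In microglia-like cells with little RNA it had -3.31, with the OIR count of 0 set to 3, and all 41 control UMIs lay in 1 cell. Irf9 had -0.70 in microglia-like cells as a whole (-0.65, -1.58 to 0.16, in homeostatic-led ones) but 1.74 in rod-like and 1.02 in cone-like cells. Ddx58 had -1.08 in Müller glia-like cells and 1.17 in rod-like cells.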

How the results depend on the processing

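No paired analysis was possible because each group has 1 library. In microglia-like cells 12 members were higher, 3 lower and the median log2 ratio was 0.35. Clustering at resolution 0.5 left only 1 homeostatic-led cluster in the class, of 564 control and 78 OIR cells. The counts and the median were then 4, 1 and 0.051, and Cxcl10 was at -2.13. In homeostatic-led clusters only they were 3, 1 and 0.095, with Isg15 at -0.081 and Cxcl10 at -2.94. Without the Spp1-led clusters 7 were higher and the median was 0.015. A minimum of 20 CPM gave 5 higher and a median of 0.057, a minimum of 100 UMIs a median of 0.31, and a mean over cells 6 lower and a median of 0.37. A 2-fold threshold left 1 lower. The median was 0.28 with interferon genes kept in the clustering, 0.45 with median of ratios scaling, which shifts every ratio by about 0.09, and 0.32 without the 10 cells with the most member UMIs. Of the alternatives chosen after seeing the data, the median was 0.46 with cycling myeloid cells, 0.43 without cells that hold photoreceptor RNA, 0.39 without the 10 cells richest in the 5 antiviral genes and 0.17 without the single richest OIR cell. Under all the alternatives to the class and cells run, except resolution 0.5 and homeostatic-led clusters only, all 12 higher members kept a ratio above 0. The 3 lower members kept a ratio below 0 in all of them. But none of the 3 was counted as lower at resolution 0.5 or in homeostatic-led clusters only. The share of microglia-like cells with at least 3 members was 13.5% in control and 17.9% in OIR. It was 6.24% and 9.65% at 1000 UMIs, 32.3% and 35.6% at 2500 UMIs, and 2.55% and 3.35% for 5 members. Over 10 other thinnings it ranged from 11.4% to 15.2% and from 15.4% to 19.3%. The alternatives for rod-like and Müller glia-like cells were also chosen after seeing the data. With at least 1000 genes and at most 5% mitochondrial UMIs, 5 of 8 members were higher in rod-like cells, against 10 of 13, with medians of 1.40 and 1.39. In Müller glia-like cells, of which 30 control cells were then left, 1 of 20 was higher, against 5 of 26, and the median was -0.35, against 0.12, with Gbp2 at -0.56 and Ifitm3 at -0.30. There 6 were lower by the mean over cells (median -0.29) and 4 without the 10 richest cells (median -0.09), against 2. The cause of these shifts was not tested. Depth limits the members with few UMIs, such as Gbp2, Mx1 and Ifit1, whose intervals span more than 1 log2 unit.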
